A study of Homo sapiens with 9 samples.

Results

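The 8 genes described here are the transcription factors SNAI1, SNAI2, TWIST1, TWIST2, ZEB1 and ZEB2, together with CDH2 and VIM. They were chosen by gene symbol as regulators and classical markers of the endothelial-mesenchymal transition, by a rule that uses no measured value but was written with earlier results of these data known, and all 8 were found among the 29740 genes in the deposited counts. RNA was sequenced from HMEC-1, an established line of human dermal microvascular endothelial cells, in 3 untreated libraries (CTRL), 3 libraries after 24H of 50 µM trimethylamine N-oxide (TMAO, a metabolite derived from the gut microbiome) and 3 libraries after 48H at the same dose. Treatment took place in serum-starved medium, and the study asked which molecular pathways follow TMAO over time. The controls of both time-points formed a single group, so a difference from CTRL and a difference in time in culture cannot be told apart. The same holds for 48H against 24H, where no control of the same time stands beside each group. The study describes its experimental data in general as coming from independent experiments, but neither the labels nor the sequencing methods say which culture each library came from. The p-values below measure only the spread between these libraries, which may in part be technical.

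In the endothelial-mesenchymal transition, endothelial cells loosen their junctions and take up features of fibroblasts and smooth muscle cells, typically under transforming growth factor beta (TGF-β) and Notch signals. SNAI1 (Snail) and SNAI2 (Slug) are zinc-finger repressors of junction genes, TWIST1 and TWIST2 are basic helix-loop-helix factors that pair with E proteins, and ZEB1 and ZEB2 are zinc-finger homeobox repressors held in check by the miR-200 family. CDH2 encodes N-cadherin, an adhesion protein that endothelial cells carry beside VE-cadherin, and VIM encodes vimentin, the intermediate filament protein of mesenchymal and also of endothelial cells.

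At 24H, 0 of the 8 genes differed from CTRL in edgeR's quasi-likelihood test at a Benjamini-Hochberg adjusted p under 0.05. Of all 14740 tested genes, 0.095% passed. In edgeR 1 of the 8, TWIST2, was lower at an unadjusted p under 0.05. So were 659 of all 14740 tested genes, while 408 were higher at that limit. DESeq2 also gave 0 of the 8 at an adjusted p under 0.05, but it gave no adjusted p for TWIST1 in any comparison. At 48H, 2 of 8 passed, beside 10.4% of all tested genes. TWIST2 fell by 30.4% and VIM fell by 15.5%, while the fitted values of ZEB1 and CDH2 were 2.06% and 1.97% above CTRL, differences that did not pass and that turned sign after a correction for G and C content. ZEB2 and TWIST1 had higher values at 48H than in CTRL and SNAI1 lower values, each without overlap between the libraries, but these did not pass the test. At 48H, 5 of the 8 genes did not overlap with CTRL (62.5%, beside 27.8% of all tested genes), 2 of them higher, beside 14.7% of all genes, and 3 lower, beside 13%.

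The samples had total counts of 25205756 to 36927373, and 6 ribosomal RNA genes took 31.5% of the counts in TMAO 24H replicate 1 but 1.64% to 7.46% elsewhere. All 11 endothelial markers, VE-cadherin (CDH5) and PECAM1 among them, were expressed, and their summed level was 78562 to 87330 normalised counts (counts scaled to a common effective library size) in CTRL, 78993 to 82886 at 24H and 69157 to 74571 at 48H. Epithelial markers stood apart in 1 library. The sum of EPCAM, CDH1, KRT5, KRT14 and ESRP1 was 1740 to 3097 normalised counts in 8 libraries and 270 in TMAO 48H replicate 3, where each of the 5 genes had its lowest value. At 48H, 7 of the 11 endothelial markers were lower in edgeR's test and 0 higher, beside 5.29% of all tested genes that were lower, and the calls of CDH5, PECAM1, ERG and EGFL7 were lost in some fits that left out 1 library. Of the 4 leukocyte markers CD3E was at 0, and the 4 together did not exceed 46.7 normalised counts. The part of these differences between libraries in the results was not tested. Where leaving out TMAO 48H replicate 3 ended a call against CTRL, the value without it is given.

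**Figure D1:**
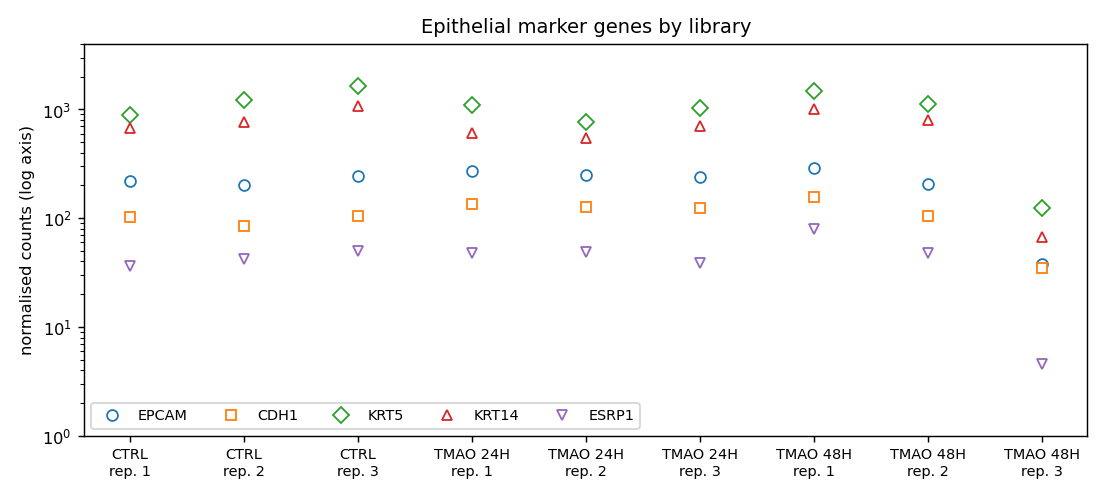
Normalised counts of 5 epithelial marker genes in each of the 9 libraries (log axis), 1 symbol per gene. In TMAO 48H replicate 3 each gene lies below its values in the other 8 libraries.

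The promoters of TWIST2 and VIM are shown because these were the genes that passed the test. The 250 bases before the RefSeq start on GRCh38.p14 are chr2:238847835-238848084 on the plus strand for TWIST2, with a G and C content of 68.4%, and chr10:17227991-17228240 on the plus strand for VIM, with one of 46.0%.
TWIST2: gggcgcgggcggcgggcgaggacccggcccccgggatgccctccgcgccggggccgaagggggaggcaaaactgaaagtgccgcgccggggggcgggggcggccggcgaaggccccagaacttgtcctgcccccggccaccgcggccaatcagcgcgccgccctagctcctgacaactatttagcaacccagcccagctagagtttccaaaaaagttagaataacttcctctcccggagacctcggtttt
VIM: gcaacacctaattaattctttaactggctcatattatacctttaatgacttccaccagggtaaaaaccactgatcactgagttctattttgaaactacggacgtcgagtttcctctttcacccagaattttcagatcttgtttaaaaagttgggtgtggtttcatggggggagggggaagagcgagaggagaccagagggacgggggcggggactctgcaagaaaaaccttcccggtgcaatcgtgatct
They were searched on both strands for CANNTG, the E-box that TWIST and other basic helix-loop-helix factors bind, and for 2 of its forms, CAGGTG (bound by SNAI and ZEB factors, CACCTG on the other strand) and CACGTG. No match was found in either window. Over 35116 promoter windows of the same length, 61.8% held CANNTG, 17.5% CAGGTG and 6.35% CACGTG. Windows without CANNTG were also found at some RefSeq starts of ZEB1 and CDH2, which did not pass. Other starts of these genes and that of ZEB2 held CANNTG, some of ZEB1 in the form CAGGTG. RefSeq entries were found for 5 of the 8 genes. The genome build of the counts is not given in the sources used here, so these positions belong to the RefSeq sequences alone.

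The levels of the 8 genes differed widely. Per kilobase of transcript (normalised counts divided by the length of the principal GENCODE 29 transcript), the CTRL level was 41225 ± 1734 (SD, n = 3) for VIM, a value far above the other genes. TWIST2 came next with 417 ± 41.3 (SD, n = 3), followed by ZEB1 with 392 ± 29.3 (SD, n = 3), and the libraries of these neighbours overlapped. CDH2 had 297 ± 21.7 (SD, n = 3), ZEB2 180 ± 15.7 (SD, n = 3) and SNAI1 137 ± 6.97 (SD, n = 3) per kilobase, without overlap between neighbours. SNAI2 followed with 62.0 ± 5.97 (SD, n = 3) and TWIST1 came last with 8.97 ± 3.21 (SD, n = 3), again without overlap. At 48H, TWIST2 had 290 ± 41.7 (SD, n = 3) per kilobase, below ZEB1 at 400.5 ± 17.7 (SD, n = 3) and no longer separated from CDH2 at 303 ± 6.53 (SD, n = 3). The order of ZEB2, SNAI1, SNAI2 and TWIST1 was the same at 48H as in CTRL.

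TWIST2, known from dermal development as Dermo-1, had 566, 650 and 539 normalised counts in CTRL libraries 1 to 3, 392, 384 and 530.0 at 24H, and 398, 469 and 353 at 48H. All 6 treated libraries lay below the 3 CTRL libraries, although TMAO 24H replicate 3 missed the lowest of these by little. The log2 fold change was -0.52 at 48H (95% interval -0.80 to -0.24, standard error 0.130, adjusted p = 0.0226 from edgeR). At 24H it was -0.43 (interval -0.71 to -0.15, standard error 0.130), with an adjusted p of 0.493 from edgeR and 0.239 from DESeq2. The direct difference between 48H and 24H was -0.097 on the log2 scale (interval -0.38 to 0.18, adjusted p = 0.733), so the time-points were not shown to differ. The call at 48H was lost without TMAO 48H replicate 3, the library low in epithelial markers (log2 fold change -0.43, adjusted p = 0.0620), without CTRL replicate 1 (-0.55, 0.0521) and without CTRL replicate 2 (-0.44, 0.103). In bulk RNA, fewer cells expressing TWIST2 and less TWIST2 RNA per cell cannot be told apart, and the same holds for every gene below.

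TWIST1, the closest relative of TWIST2, was barely expressed. Its counts were 9, 18 and 18 in CTRL, 10, 10 and 15 at 24H, and 19, 29 and 17 at 48H, which sum to 45 (exact Poisson 95% interval 32.8 to 60.2), 35 (24.4 to 48.7) and 65 (50.2 to 82.8) counts. These intervals cover counting error only. Normalised, the 48H libraries lay above all the others, but the log2 fold change of 0.59 against CTRL (interval -0.14 to 1.32, adjusted p = 0.297) and that of 1.00 against 24H (interval 0.24 to 1.75, adjusted p = 0.111) did not pass in edgeR. The ratio of TWIST2 to TWIST1 counts within a library was 64.6, 36.3 and 29.7 in CTRL, 35.0, 42.3 and 39.5 at 24H, and 18, 18.4 and 18.1 at 48H. The ratio of TWIST2 to ZEB2 counts was 0.311 to 0.364 in CTRL, 0.224 to 0.302 at 24H and 0.169 to 0.241 at 48H, without overlap of either time-point with CTRL. The TWIST2 to TWIST1 ratio was lower in each 48H library than in any other library, with the smallest p that 3 libraries against 3 allow (exact permutation test, two-sided, p = 0.1, 0.2 after adjustment over the 18 ratio comparisons made).

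VIM, among the most abundant transcripts, had a higher mean count than 99.9% of the 14740 tested genes. Its normalised counts were 78040, 79604 and 73378 in CTRL, 76511, 76598 and 77625 at 24H, and 65481, 62703 and 67016 at 48H. The 24H libraries lay within the range of CTRL, while the 48H libraries lay below both groups. The log2 fold change was -0.0018 at 24H (interval -0.14 to 0.13, adjusted p = 0.996), -0.24 at 48H (interval -0.38 to -0.11, adjusted p = 0.0247) and -0.24 between 48H and 24H (interval -0.37 to -0.11, adjusted p = 0.0309), all from edgeR. The fall at 48H, of less than 1.4-fold, was -0.26 without TMAO 48H replicate 3 (adjusted p = 0.0345). It did not pass without CTRL replicate 1 (adjusted p = 0.0801), CTRL replicate 2 (0.0971) or TMAO 48H replicate 2 (0.109), nor after corrections for G and C content (-0.21, 0.0765) or transcript length (-0.20, 0.0610). The difference from 24H did not pass without TMAO 24H replicate 1, the library rich in ribosomal RNA (-0.25, adjusted p = 0.0607), without TMAO 24H replicate 2 (0.0977) or 3 (0.122), or without TMAO 48H replicate 2 (0.133), and after the G and C correction its adjusted p was 0.0629.

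**Figure D2:**
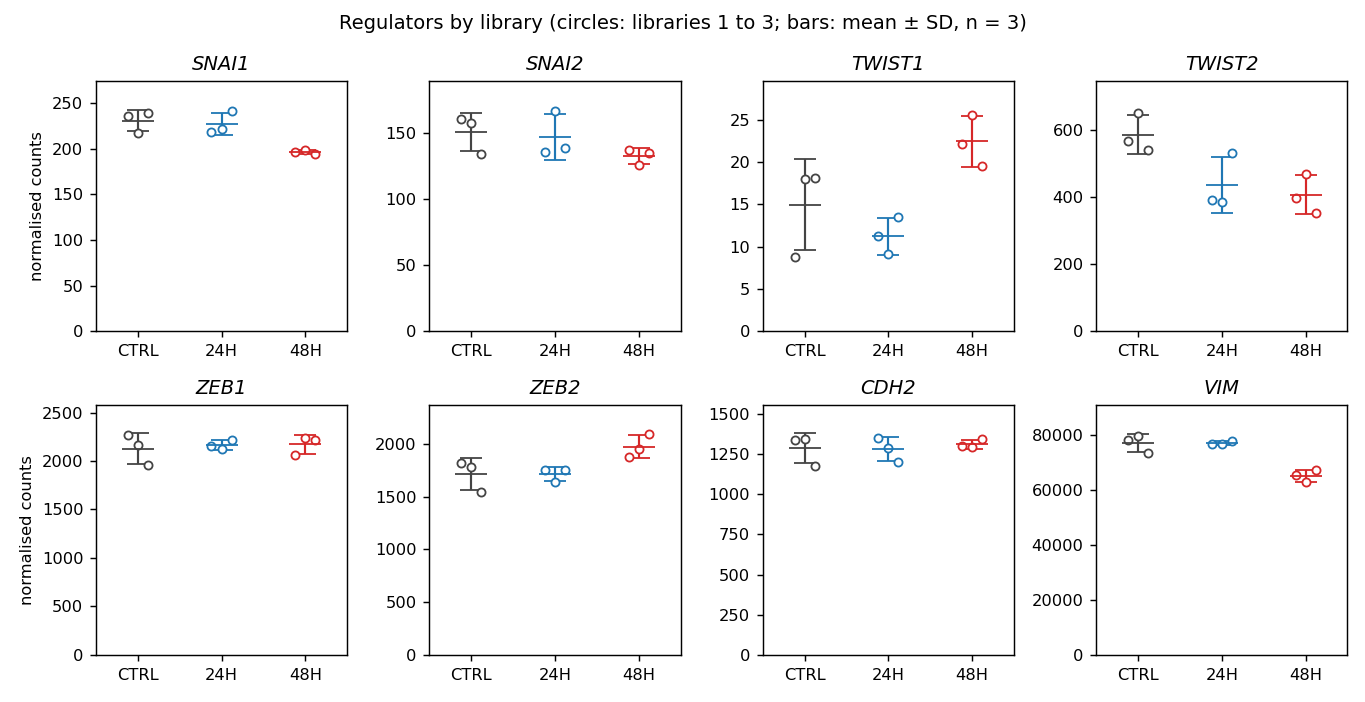
Normalised counts of the 8 genes in each library (circles), with the mean and SD of the 3 libraries of each group (lines), on axes that start at 0. The 48H libraries of TWIST2 and VIM lie below the CTRL libraries, while those of ZEB1 and CDH2 overlap with CTRL.

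Neither ZEB2 nor ZEB1, which recognise the same E-box, passed in any comparison in the edgeR fit of all 9 libraries. ZEB2 had 1818, 1785 and 1544 normalised counts in CTRL, 1750, 1639 and 1753 at 24H, and 1874, 1951 and 2090 at 48H. Its 48H libraries lay above all CTRL and 24H libraries, with log2 fold changes of 0.20 against CTRL (interval 0.064 to 0.34, adjusted p = 0.0615) and 0.20 against 24H (interval 0.065 to 0.34, adjusted p = 0.0734) that missed the threshold in edgeR. DESeq2 gave 0.0421 and 0.0563 for these adjusted p-values. The log2 fold change against CTRL was 0.16 without TMAO 48H replicate 3 (adjusted p = 0.156) and 0.13 after the correction for G and C content (0.338). ZEB1 had 2267, 2162 and 1955 normalised counts in CTRL, 2159, 2120 and 2219 at 24H, and 2063, 2241 and 2212 at 48H. The groups overlapped, and the log2 fold changes of 0.025 at 24H (interval -0.093 to 0.14, adjusted p = 0.969) and 0.029 at 48H (interval -0.089 to 0.15, adjusted p = 0.787) correspond to 0.937-fold to 1.105-fold and 0.940-fold to 1.108-fold intervals. The ZEB2 to ZEB1 ratio was 0.790 to 0.826 in CTRL, 0.773 to 0.811 at 24H and 0.870 to 0.945 at 48H, where it did not overlap with CTRL (exact permutation test, two-sided, p = 0.1, adjusted 0.2).

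SNAI1, a short-lived repressor whose protein is controlled by phosphorylation and ubiquitylation, had 236, 217 and 239 normalised counts in CTRL, 218, 221 and 241 at 24H, and 197, 198 and 194 at 48H. The 48H libraries lay below both other groups, with a log2 fold change of -0.23 against CTRL (interval -0.43 to -0.032, adjusted p = 0.131) and -0.21 against 24H (interval -0.41 to -0.0097, adjusted p = 0.204) in edgeR. SNAI2, its paralogue, had 161, 157 and 134 normalised counts in CTRL, 136, 167 and 139 at 24H, and 137, 126 and 135 at 48H. These groups overlapped, and the log2 fold change at 48H was -0.18 (interval -0.45 to 0.086, adjusted p = 0.385). The SNAI1 to SNAI2 ratio overlapped between all groups, at 1.38 to 1.78 in CTRL, 1.33 to 1.74 at 24H and 1.43 to 1.57 at 48H.

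CDH2 had 1339, 1343 and 1179 normalised counts in CTRL, 1351, 1289 and 1203 at 24H, and 1298, 1295 and 1345 at 48H. The groups overlapped, with log2 fold changes of -0.0069 at 24H (interval -0.14 to 0.12, adjusted p = 0.991) and 0.028 at 48H (interval -0.10 to 0.16, adjusted p = 0.817). CDH5, which encodes VE-cadherin of the endothelial junction, fell by 0.26 on the log2 scale at 48H (adjusted p = 0.0181), a call lost without CTRL replicate 1, CTRL replicate 2 or TMAO 48H replicate 2. The ratio of CDH2 to CDH5 counts was 0.0589 to 0.0617 in CTRL, 0.0583 to 0.0670 at 24H and 0.0722 to 0.0773 at 48H. The 48H ratios lay above those of both other groups (exact permutation test, two-sided, p = 0.1, adjusted 0.2), while CDH2 itself overlapped between groups.

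**Figure D3:**
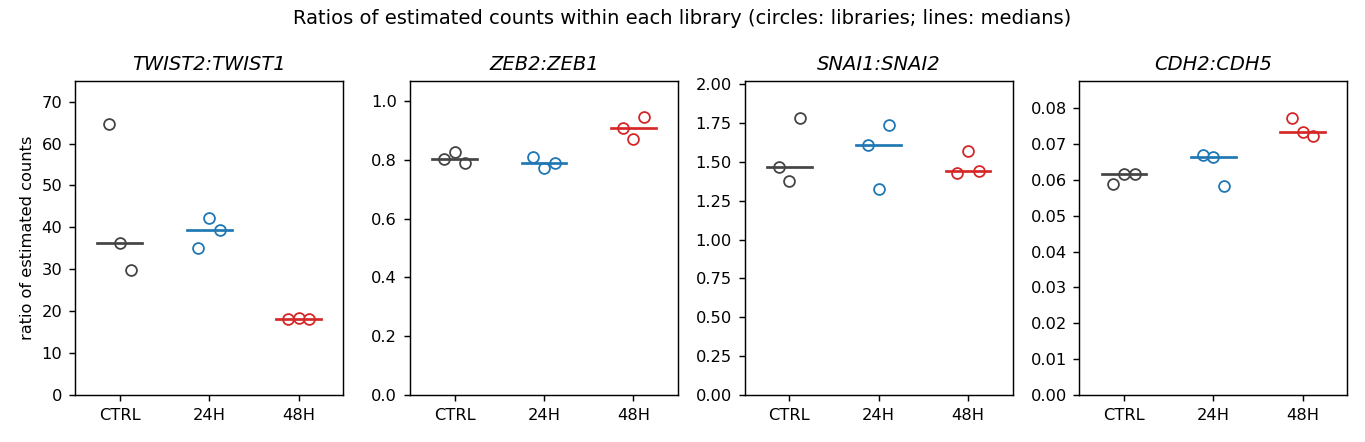
Ratios of estimated counts of 2 genes within each library (circles), with the median of each group (lines). At 48H the TWIST2 to TWIST1 ratio lies below, and the ZEB2 to ZEB1 and CDH2 to CDH5 ratios lie above, the libraries of both other groups.

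Both genes that passed at 48H were lower, beside 5.29% of all tested genes that passed in that direction, and 1, TWIST2, had at least a 1.4-fold change, beside 1.8% in either direction. Between 48H and 24H, 1 of 8 passed, VIM, beside 7.53% (3.77% lower). With at least 1.4-fold, 0 passed in edgeR, beside 1.71%, and 0 in DESeq2. At an unadjusted p under 0.05 with no limit on the fold, 4 of the 8 were called in edgeR, 2 higher and 2 lower. Of all 14740 tested genes, 1715 were higher and 1541 lower at that limit. At 24H, 0 of 8 had at least 1.4-fold with an adjusted p under 0.05 in edgeR or DESeq2, beside 0.0475%. Groups did not overlap for 1 gene at 24H (12.5% of the 8, beside 14.2% of all tested genes) and for 4 genes between 48H and 24H (50%, beside 27.7%). With 8 genes that were chosen by name, these shares describe the genes and are not a test. All 8 passed the filter on low counts. The median log2 fold change of the 8 was -0.015 at 24H and -0.078 at 48H, beside -0.00042 and 0.0040 over all tested genes.

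**Figure D4:**
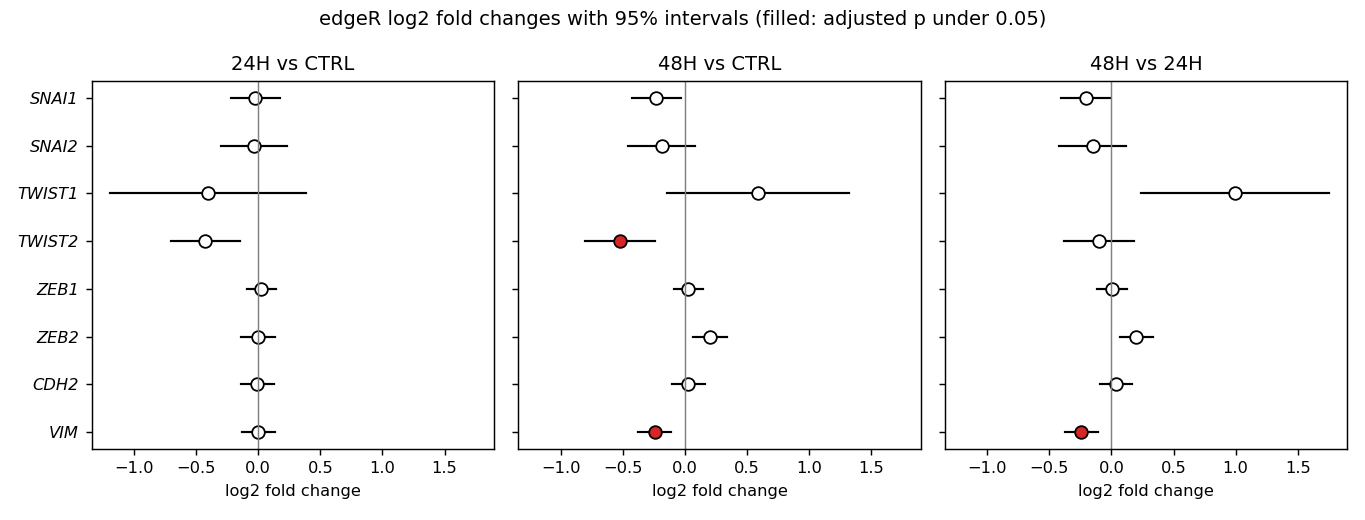
edgeR log2 fold changes of the 8 genes (circles, filled where the adjusted p was under 0.05) with 95% intervals (lines) in the 3 comparisons. TWIST2 and VIM are filled for 48H against CTRL and VIM alone for 48H against 24H, while the widest intervals are those of TWIST1.

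Over the 9 libraries, the genes whose log2 depth-scaled counts followed TWIST2 most closely were GRAMD1A (Pearson r = 0.972), SPATC1L (0.966) and PPP2R3B (0.963), among 12328 genes compared. Those closest to VIM were PLAT, which encodes tissue plasminogen activator (0.994), SERPINE2, which encodes a protease inhibitor (0.986), and COL1A2, which encodes a chain of type I collagen (0.986). These values describe 9 libraries that fall into 3 groups, and the libraries share their depth and composition across genes.

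The pathway around the 8 genes was followed with 13 lists of 139 genes, of which 127 were tested. At 24H, 1 of the 127 passed (0.787%, beside 0.095% of all tested genes). This was the Notch target HES1, which fell by 25.2% to a mean of 629 ± 47.6 normalised counts (SD, n = 3). Its log2 fold change was -0.42 (adjusted p = 0.0454 from edgeR), and the call was lost in each of the 6 fits that left out 1 library. At 48H, 42 of the 127 passed (33.1%, beside 10.4% of all tested genes), 9 higher and 33 lower than CTRL. These lists were written with earlier results of these data known, so their shares are not independent evidence. Of the 42, 21 passed in each of the 6 fits that left out 1 library. Leaving out CTRL replicate 2 ended 20 calls, TMAO 48H replicate 2 ended 18, CTRL replicate 1 ended 17, and TMAO 48H replicate 3 ended 3, those of TCF12 (adjusted p = 0.114 without it), LATS2 (0.0933) and TGFBR1 (0.0934). A correction for G and C content kept 27 of the 42, and among the genes named below it ended the calls of TCF3, TCF12, CTBP1, FBXL5, TGFBR1, ENG, BMPR1A, ACVRL1, JAG2, CDH4, JUP, LMNA, KRT18 and PLEC. Unless a lower number is given, the genes named below as lower or higher than CTRL at 48H passed in each of these 6 fits. The counts per list at 48H below stand beside 10.4% of all tested genes that passed in either direction and 5.29% that passed as lower.

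Among the 6 tested TGF-β and bone morphogenetic protein (BMP) ligands, 2 were lower at 48H and 0 higher, with a list median of -0.11 on the log2 scale. TGFB1 had 6472 ± 432 normalised counts in CTRL (SD, n = 3) but 5123 ± 197 by 48H (SD, n = 3; log2 fold change -0.34, adjusted p = 0.00217), and BMP6 had a log2 fold change of -0.25 (adjusted p = 0.00450). TGFB2, whose product is often used to induce the transition in culture, differed from 24H to 48H (0.35, adjusted p = 0.00114) but had a log2 fold change of 0.086 against CTRL (adjusted p = 0.337). Of 8 receptors, 2 were higher and 2 lower at 48H. ACVRL1, which encodes the endothelial BMP receptor ALK1, had a log2 fold change of -0.19 (adjusted p = 0.00955). The co-receptor ENG (-0.25, adjusted p = 0.0409, 2 of 6 fits) was also lower, while the receptors TGFBR1 (0.19, 0.0477, 1 of 6 fits) and BMPR1A (0.19, 0.0464, 1 of 6 fits) were higher. Of 9 SMAD factors and inhibitors 1 passed (11.1%, beside 10.4% of all tested genes). This was SMAD1 (-0.19, adjusted p = 0.0289, 3 of 6 fits), which carries BMP signals.

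Of 12 Notch ligands, receptors and targets, 3 were lower and 0 higher at 48H. The ligand JAG1 had a log2 fold change of -0.36 (adjusted p = 0.000961) and the ligand JAG2 of -0.29 (adjusted p = 0.00989). NOTCH4, an endothelial receptor, had -0.39 (adjusted p = 0.0170, 3 of 6 fits). HES1 was back near CTRL at 48H, where its mean was 874 ± 55.7 normalised counts (SD, n = 3), and its difference from 24H passed (0.47, adjusted p = 0.000770).

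Of 7 E proteins and ID inhibitors, the dimer partners of TWIST and the proteins that sequester them, 1 was higher and 2 were lower at 48H. These were the E proteins TCF12 (0.16, adjusted p = 0.0437, 1 of 6 fits), TCF3 (-0.16, 0.0193, 4 of 6) and TCF4 (-0.15, 0.0363, 2 of 6). The 4 ID genes did not pass against CTRL at either time-point, but each was higher at 48H than at 24H, ID4 in 2 of the 6 fits that left out 1 library. ID3 had mean normalised counts of 6084 ± 441 in CTRL, 5067 ± 183 at 24H and 6885 ± 451 at 48H (SD, n = 3 each; 48H against 24H 0.44, adjusted p = 0.000345). Of 13 corepressors and chromatin partners, 1 was higher and 2 lower, led by LOXL2, a lysyl oxidase that stabilises Snail (-0.35, adjusted p = 0.000961), with CTBP1 (-0.19, 0.0109, 5 of 6 fits) and SUZ12 (0.23, 0.0148, 3 of 6 fits). A list of 10 genes that act on SNAI1 protein held mostly kinases and ubiquitin ligases. All 10 had fitted values above CTRL at 48H, as had 7515 of all 14740 tested genes. Of the 10, 2 passed, FBXL5 (0.22, adjusted p = 0.0115, 5 of 6 fits) and LATS2 (0.14, 0.0342, 1 of 6 fits). Of 8 other transition factors 0 passed in any comparison in edgeR. At an unadjusted p under 0.05, 1 was lower than CTRL at each time-point. Of all 14740 tested genes, 659 were lower at 24H and 1863 at 48H at that limit. DESeq2 gave 1 of the 8 at 24H, where 55 of all genes passed, and 0 at 48H, where 1716 passed. FOXC2 had mean normalised counts of 482 ± 45.2 in CTRL, 339 ± 59.4 at 24H and 429 ± 15.7 at 48H (SD, n = 3 each), with adjusted p-values of 0.180 and 0.369 against CTRL.

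**Figure D5:**
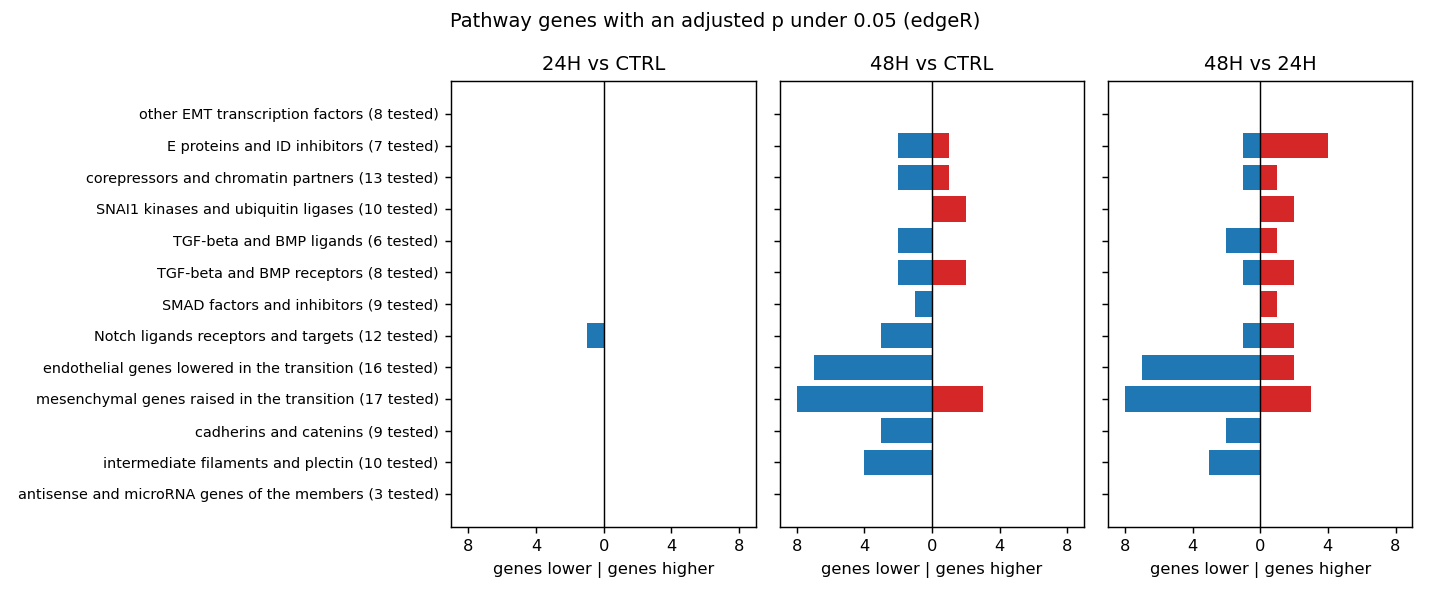
Number of genes in each pathway list with an adjusted p under 0.05 in edgeR, lower (bars to the left) or higher (bars to the right), in the 3 comparisons. The longest bars are those of genes lower at 48H in the mesenchymal and endothelial lists.

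Of 16 endothelial genes known to be lost in the transition, 7 were lower and 0 higher than CTRL at 48H, and the list median was -0.16 on the log2 scale. The list holds all 11 endothelial markers counted above, and the 7 lower genes are the same in both. ROBO4 had a log2 fold change of -0.33 (adjusted p = 0.00194), the angiopoietin receptor relative TIE1 of -0.26 (0.00569) and the VEGF receptor KDR of -0.27 (0.0110). Of 17 mesenchymal genes known to be raised in the transition, 8 were lower and 3 higher at 48H, with a list median of -0.17. MMP2, a gelatinase, had 17159 ± 1601 normalised counts in CTRL (SD, n = 3) but 7859 ± 287 by 48H (SD, n = 3; log2 fold change -1.13, adjusted p = 2.07e-06). COL1A2 (-1.08, 5.95e-06) and COL1A1 (-0.67, 2.15e-05), the chains of type I collagen, were also lower. The 3 that rose were ACTA2 (smooth muscle actin), with 126 ± 8.84 normalised counts in CTRL and 211 ± 21.2 by 48H (SD, n = 3 each; 0.74, adjusted p = 0.00194), TAGLN (transgelin, 0.33, 0.00428) and THY1 (0.47, 0.00147). These 3 were named after their values were seen, as the list's 3 higher genes.

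The 6 fibroblast markers share COL1A1, COL1A2 and FAP with this list, and only 4 of the 6 were tested. The summed level of the 6 came mostly from COL1A1 and COL1A2, so it repeats the values above. It was 27003 to 31533 normalised counts in CTRL, 27266 to 29568 at 24H and 16635 to 18243 at 48H. Of the other 3, PDGFRA had a mean of at most 10.6 normalised counts in a group, and DCN and LUM, which define dermal fibroblasts, had at most 2.24 in any library. The 6 smooth muscle and pericyte markers, ACTA2 among them, summed to 3285 to 3545 in CTRL, 3208 to 3396 at 24H and 3143 to 3523 at 48H. Most of this sum came from CSPG4 and PDGFRB, with means of 1703 and 1461 in CTRL, so it can hide the change of ACTA2.

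Among other cadherins and catenins, 3 of 9 were lower at 48H and 0 higher. Besides CDH5 these were CDH4 (-0.31, adjusted p = 0.0374) and JUP, which encodes plakoglobin (-0.25, 0.0283), each in 2 of 6 fits. Among the intermediate filament genes related to VIM and the linker plectin, 4 of 10 were lower and 0 higher. KRT7 had the lowest adjusted p (-0.44, 0.000112), followed by PLEC (-0.29, 0.00989), KRT18 (-0.24, 0.0131, 4 of 6 fits) and LMNA (-0.18, 0.0246, 3 of 6 fits). The VIM to LMNA count ratio was 2.898 to 3.05 in CTRL, 2.85 to 2.95 at 24H and 2.78 to 2.895 at 48H. The 48H ratios lay just below those of CTRL (exact permutation test, two-sided, p = 0.1, adjusted 0.2), while those at 24H overlapped with both. Of the antisense genes ZEB1-AS1, VIM-AS1 and SNAI3-AS1, 0 passed in any comparison in edgeR or DESeq2 and 0 had an unadjusted p under 0.05, the most abundant being ZEB1-AS1 with 164 ± 16.8 (SD, n = 3) normalised counts in CTRL. The strand setting of the counting is not stated, so reads of VIM or ZEB1 and of their antisense genes may not be separated. The 5 miR-200 family genes were listed at 0 counts in all 9 libraries, and mature microRNAs are not measured by this assay.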

How the data were processed

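Total RNA was sequenced in 9 HMEC-1 libraries, 3 per group. The authors trimmed reads with Trim Galore, ran the nf-core RNA-seq pipeline and deposited estimated counts per gene, of which 14.7% of values were not whole. The quantifier, genome build, annotation and strand setting are not given in the sources used here. Counts were rounded and tested with edgeR 4.0.16 in R 4.3.3 (filterByExpr, TMM factors, quasi-likelihood test, all 9 libraries in 1 fit with group as the only term), and p-values were adjusted over 14740 of 29740 genes by the Benjamini-Hochberg method. Normalised counts are counts scaled to the mean effective library size. DESeq2 1.42.0, other scalings, filters, a replicate block and each library left out were alternatives. Corrections for G and C content and transcript length (known for 89.8% of tested genes) were added after seeing the data. The tests were checked on simulated counts with the same relative spread for all genes and larger planted changes than those of TWIST2 and VIM. This check does not cover changes as small as theirs. The 8 genes and all lists were chosen with earlier results of these data known. Named were the 8 genes, the list genes that passed (at most 4 per list and comparison, lowest adjusted p first, otherwise the most abundant) and the 3 genes most correlated with each of the 8 that passed, with at least 50 normalised counts, and some genes that this rule names are not reported here. Total counts limit precision mainly for TWIST1.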

Additional observations from a re-analysis of the deposited data

Results flagged for a closer look

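The difference between the effects at 24H and at 48H, each against the pooled CTRL, was tested directly as 48H against 24H in edgeR. These groups also differ in time in culture, which the pooled CTRL cannot separate from TMAO. The genes that passed among those named by the rule are given here. Since both effects share the CTRL libraries, only the direct log2 fold changes are given. VIM (-0.24) was the one regulator or marker of the 8 to pass, and its call was lost without any 1 of the 3 TMAO 24H libraries or without TMAO 48H replicate 2. For the other genes, the number of fits that left out 1 library of the groups compared and still passed is given where it is below 6 of 6.

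The inhibitors of helix-loop-helix factors were higher at 48H than at 24H, with values of 0.67 for ID2, 0.44 for ID3 and 0.30 for ID1, while TCF3, an E protein, was lower (-0.16, 2 of 6 fits). Of the corepressor partners, LOXL2 (-0.28) was lower and SUZ12 (0.19, 1 of 6 fits) higher, and the ubiquitin ligase gene FBXL5 (0.21, 5 of 6) and the kinase gene LATS2 (0.16, 1 of 6) were higher. In the TGF-β and BMP pathway, TGFB2 (0.35), BMPR1A (0.25, 5 of 6), TGFBR3 (0.26, 2 of 6) and SMAD6 (0.43, 4 of 6) were higher. TGFB1 (-0.23, 4 of 6), BMP6 (-0.19, 3 of 6) and TGFBR2 (-0.16, 0 of 6) were lower. In the Notch pathway, HES1 (0.47) and NOTCH3 (0.37) were higher and JAG1 (-0.27) lower.

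Among endothelial genes, VWF (0.51) was higher and ROBO4 (-0.34), KDR (-0.26, 4 of 6) and ERG (-0.21, 3 of 6) were lower. The matrix genes MMP2 (-1.18), COL1A2 (-1.06) and COL1A1 (-0.59) were lower at 48H, as were the junction genes JUP (-0.30, 4 of 6) and CTNNB1 (-0.15, 0 of 6) and the filament genes KRT7 (-0.33), PLEC (-0.28, 5 of 6) and LMNA (-0.21, 4 of 6). Without TMAO 48H replicate 3, LATS2 (adjusted p = 0.0709), TGFBR2 (0.0870) and CTNNB1 (0.0715) did not pass in edgeR. After the correction for G and C content, VIM (0.0629), TCF3 (0.12), SUZ12 (0.0557), TGFB1 (0.0757) and LMNA (0.0854) did not pass.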

How the results depend on the processing

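At 24H, 0 of the 8 genes passed under every alternative run. TWIST1 had no adjusted p in DESeq2 and was not tested where at least 10 counts in every library were required. At 48H against CTRL, where 2 passed, DESeq2 gave 3, while a 1.4-fold minimum, the G and C correction, the length correction and a fit of only the 2 groups each gave 1, and leaving out 1 library gave 0 to 3. Between 48H and 24H, where 1 passed, a 1.4-fold minimum and the G and C correction gave 0, only the 2 groups 2, and leaving out 1 library 0 to 2. Without both TMAO 24H replicate 1 and TMAO 48H replicate 3, chosen after seeing the data, 1 and 0 passed. With the replicate number as a block, 0 passed in each comparison (adjusted p = 0.0532 for TWIST2 and 0.0782 for VIM at 48H). Deviations from the group means correlated at r = -0.12 to 0.091 over 9 pairs of libraries that shared a number. Over 18 pairs with different numbers, r was -0.0996 to 0.159. These overlapping ranges cannot decide whether the numbers mark shared cultures. The causes were not tested.

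Signs turned only for values that had not passed. At 24H these were ZEB2 under DESeq2 (0.00086), RLE factors (0.0012) and without ribosomal RNA genes (0.00014), VIM under the same settings (0.0011, 0.00091 and 0.00067) and under the G and C (0.010) and length (0.031) corrections, and SNAI1 under the length correction (0.020). At 48H against CTRL they were ZEB1 (-0.036) and CDH2 (-0.0023) under the G and C correction. Between 48H and 24H, ZEB1 turned under DESeq2 (-0.0011), RLE (-0.0021) and upper quartile (-9.4e-05) factors, without ribosomal RNA genes (-0.0034), under the G and C (-0.040) and length (-0.012) corrections and with only the 2 groups (-0.0046). With libraries left out, the 24H values spanned -0.068 to 0.0066 for SNAI1, -0.14 to 0.021 for SNAI2, -0.029 to 0.073 for ZEB1, -0.069 to 0.042 for ZEB2, -0.063 to 0.036 for CDH2 and -0.033 to 0.023 for VIM. Those of 48H against CTRL spanned -0.033 to 0.077 for ZEB1 and -0.036 to 0.060 for CDH2. Those of 48H against 24H spanned -0.019 to 0.040 for ZEB1, -0.21 to 0.070 for TWIST2 and -0.0079 to 0.071 for CDH2.

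Among all genes, 14 passed at 24H in edgeR and 55 in DESeq2, and 1 with the block. At 48H against CTRL, 1537 passed, 948 with the block, 981 with only the 2 groups and 1028 with the G and C correction, and between 48H and 24H 1110 passed, 731 with the block. The replicate block kept 26 of the 42 list genes that passed at 48H against CTRL. Scalings moved the median of all genes by less than 0.01 on the log2 scale. The low counts of TWIST1 limit what its test could show.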
